A study of Homo sapiens with 6 samples.

Results

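The genes described here are called anchor genes, since all but ITGB6 help anchor basal epithelial cells to the basement membrane. They are 6 genes chosen by name with earlier results of these data known: ITGB4, ITGA6, COL17A1, LAMB3, COL7A1 and ITGB6. All 6 had rows in both deposited RNA count tables, which list 8798 genes for the cell line ME-180 and 9490 for the cell line SiHa. Both lines come from human cervical carcinomas and were used at passages 13 to 15. The study held 6 samples with 1 library per group: RNA of ME-180 control cells, RNA of ME-180 cells labelled p63 knockdown (shp63), RNA of SiHa cells with a vector, RNA of SiHa cells that overexpressed p63, and a p63 immunoprecipitation with its input from ME-180, which were not used here. The submitters described the ME-180 control as plko and not as untreated cells. The labels do not say whether the cells were clones or pools, nor which p63 isoform was introduced. No group had a replicate, so no comparison below has a test of the conditions, and the 95% intervals cover counting error only.

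Hemidesmosomes are the junctions that fasten basal cells of stratified epithelia to the matrix below them. ITGA6 and ITGB4 encode the alpha and beta chains of one integrin, and COL17A1 encodes a transmembrane collagen. Inside the cell these proteins are tied to keratin filaments through plectin (PLEC) and the epithelial product of DST, and outside they bind a laminin to which LAMA3 and LAMB3 contribute chains. COL7A1 encodes the collagen of the anchoring fibrils, which hook that laminin to the connective tissue. ITGB6 encodes an integrin chain that pairs with ITGAV, lies outside the hemidesmosome and is known for activating latent TGF-beta. The TP63 product, p63, controls transcription in basal epithelial cells and is known to support adhesion genes there.

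TP63 followed the labels. Its transcript NM_001114980.1 had 5619 counts in the ME-180 control and 6 in the library labelled knockdown, and 7 with the vector and 179 with overexpression in SiHa. The tables held between 10046579 and 14207637 counts per library, and levels are given as counts scaled to 1000000 of the table's own total (CPM). The library labelled knockdown was less like its own control than like SiHa. On log2(CPM + 1) of 6555 genes, a correlation over genes and not over replicates, Pearson's r was 0.745 for the ME-180 pair and 0.991 for the SiHa pair. The SiHa vector library had an r of 0.816 with the ME-180 control and of 0.857 with the library labelled knockdown. Basal squamous markers, TP63 itself among them, went from 71839 to 35.9 summed CPM in ME-180 and from 4206 to 9083 in SiHa. KRT5 made up 62894 CPM of the ME-180 control sum, and KRT17 made up 4134 and 8829 CPM of the SiHa sums. By at least 2-fold, 5 of 5 were lower in ME-180, KRT5 and KRT14 included, against 20.6% of all genes with at least 1 CPM. In SiHa 5 of 7 were higher by that rule, against 0.572% of all such genes. Summed fibroblast markers were 134 and 172 CPM in ME-180 and 38.1 and 27.7 in SiHa, immune markers 51.8 and 8.56 against 127 and 138, and endothelial markers 13.6 and 1.89 against 12.1 and 10.9, each as the reference library and then the changed one. COL3A1, PDGFRB and FBN1, 3 of the 6 fibroblast markers with a row, were at least 2-fold higher in the library labelled knockdown. COL1A1 was lower, with 1373 and then 524 counts. By the same rule 28.2% of all ME-180 genes were higher and 20.6% lower. The part of these markers in the results was not tested.

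In ME-180, the library labelled knockdown had less of 6 of 6 anchor genes by a factor of 2 or more, with log2 ratios of CPM + 1 between -3.32 and -10.17. By the same rule, 20.6% of the 6783 genes with at least 1 CPM in an ME-180 library were lower and 28.2% were higher, 48.9% in all. The median log2 ratio was -5.68 over the 6 genes and 0.28 over all 6783. The sizes differed widely between the genes: on this scale COL17A1, LAMB3 and ITGB4 were lower by over 7 log2 units, and ITGA6 and COL7A1 by less than 4. ITGB6, with few counts, lay at -3.71 on this scale and is given below by its count ratio. LAMB3 and ITGB6 reached 1 CPM only in the control, whereas the other 4 genes did so in both libraries. In SiHa, 2 of the 5 genes with at least 1 CPM were higher by at least 2-fold with p63 overexpression, COL17A1 and ITGB4, against 0.572% of 6996 genes. Of the 5, 0 were lower by that rule, against 0.743% of all genes, and 1.32% of all genes passed it in either direction. Since the 6 genes were chosen with earlier results of these data known, the shares of all genes give scale and are not a test. Fewer cells expressing a gene and less RNA per cell cannot be told apart in these bulk libraries.

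**Figure D1:**
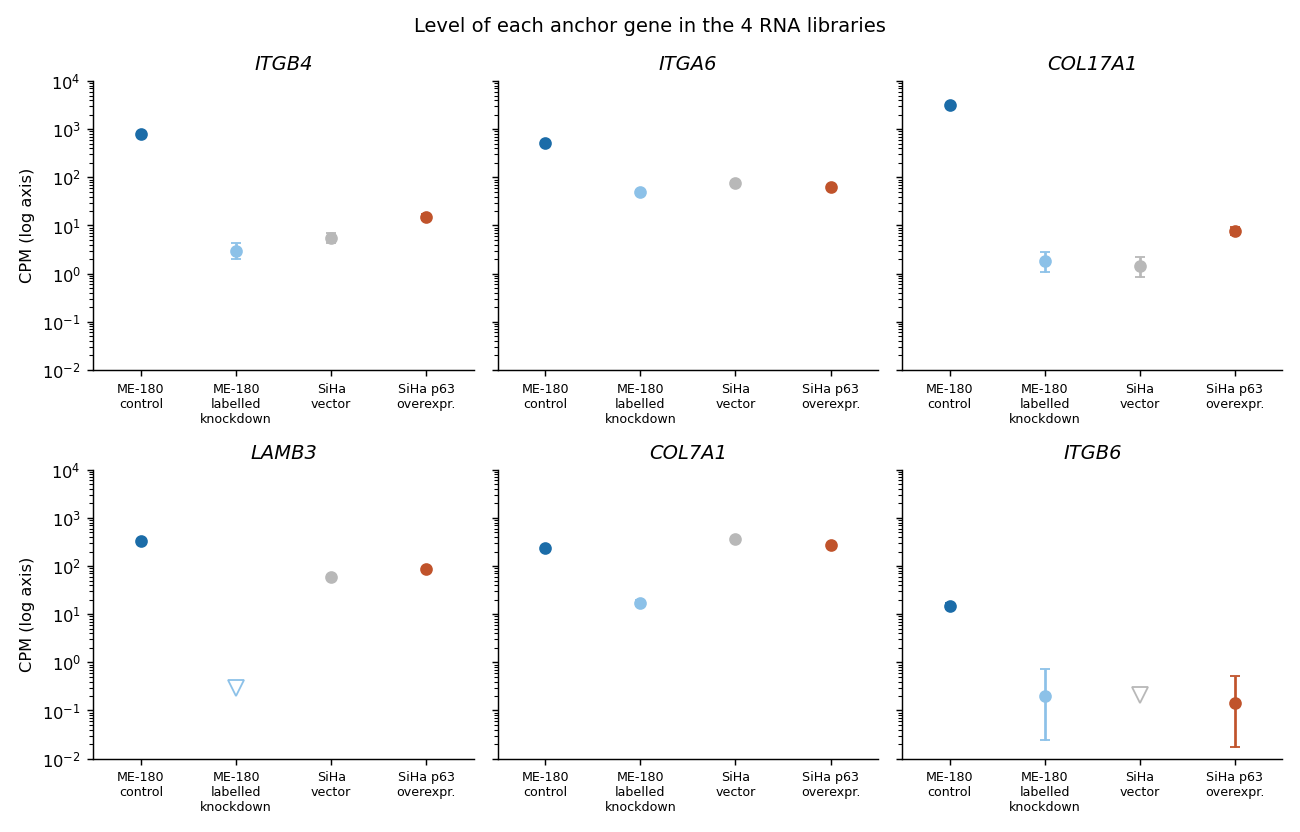
Level of each anchor gene (CPM, log axis) in the 4 RNA libraries, with exact 95% Poisson intervals for counting error, using the transcript with the highest summed level found in both tables. Open triangles mark a count of 0, drawn at the level of 3 counts. COL17A1, ITGB4, ITGA6, LAMB3 and ITGB6 were highest in the ME-180 control, and COL7A1 was highest in the SiHa vector library.

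ITGB4 and ITGA6, whose products form the hemidesmosome integrin, did not move alike. ITGB4 transcript NM_001005731.1 had 8658 counts in control ME-180 cells, 30 in the library labelled knockdown, 78 with the SiHa vector and 206 with overexpression. ITGA6 transcript NM_000210.2 had 5506, 505, 1100 and 859 counts in the same order. ITGB4 was thus high in 1 library and scarce in the other 3, while ITGA6 was present at over 50 CPM in all 4.

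The ITGB4 level was 268-fold lower in the library labelled knockdown (95% interval 188 to 398), at 801 against 2.99 CPM. ITGA6 was 10.1-fold lower (9.25 to 11.1), at 510 against 50.3 CPM. The change of ITGB4 was 26.5 times that of ITGA6 (18.3 to 39.7), a ratio of ratios that does not depend on how the libraries are scaled. In SiHa the same ITGB4 transcript was 2.74-fold higher with overexpression (2.10 to 3.60), at 5.49 against 15.0 CPM.

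ITGA6 was 0.81-fold its vector level in SiHa (0.74 to 0.89), short of the 2-fold rule. With transcript NM_000213.3 standing for ITGB4 in that line, the highest there, the ratio of overexpression to vector was 2.97 times as high for ITGB4 as for ITGA6 (2.26 to 3.92). In both lines, therefore, the beta chain differed between the libraries by more than its alpha partner, beyond counting error.

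The other transcript rows of both genes had similar ratios. The 3 ITGB4 rows had between 8095 and 8658 counts in the ME-180 control and between 30 and 36 in the library labelled knockdown, with log2 ratios from -7.65 to -7.35. In SiHa they went from between 74 and 88 counts to between 190 and 206, with log2 ratios from 1.14 to 1.31. The 2 ITGA6 rows lay at -3.32 and -3.29 in ME-180 and at -0.30 and -0.19 in SiHa. Rows of one gene can count the same reads, so they are not independent measurements and were not summed.

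**Figure D2:**
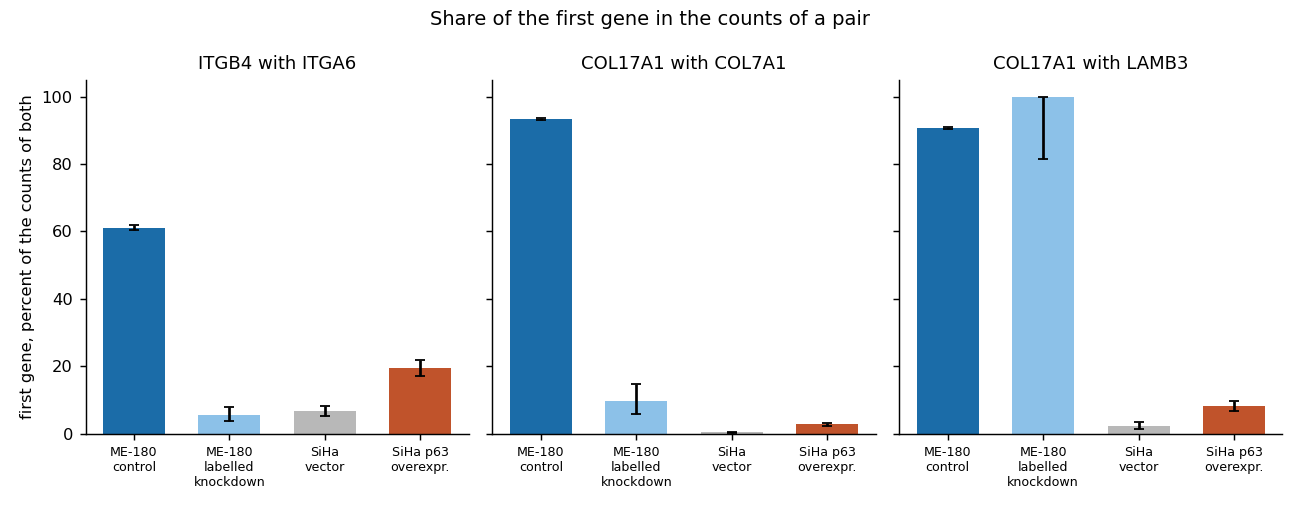
Share of the first gene in the summed counts of a pair (percent, bars from 0) in the 4 RNA libraries, with exact 95% binomial intervals. Counts are not corrected for transcript length, so bars are compared between libraries and not with 50%. ITGB4 made up 61.1% of the pair with ITGA6 in the ME-180 control and between 5.61% and 19.3% elsewhere.

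Within the pair, ITGB4 made up 61.1% of the counts in the ME-180 control (60.3% to 61.9%, exact binomial) and 5.61% in the library labelled knockdown (3.81% to 7.91%). The share was 6.62% with the SiHa vector (5.27% to 8.20%) and 19.3% with overexpression (17.0% to 21.8%). The intervals of the SiHa vector library and the library labelled knockdown overlap, and those of the control and the overexpression library lie apart from each other and from both.

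COL17A1 had the largest log2 ratio of the 6 genes in both lines, although in ME-180 LAMB3 could not be ranked against it. Its single row, NM_000494.3, had 34700 counts in control ME-180 cells, 18 in the library labelled knockdown, 20 with the SiHa vector and 107 with overexpression. In ME-180 this was 3212 against 1.79 CPM, 1793-fold lower (1134 to 3025). In SiHa it was 1.41 against 7.82 CPM, 5.55-fold higher (3.42 to 9.45). The raised level in SiHa was still 411-fold below the ME-180 control (340 to 502), with each table scaled to its own total. Scaled to the 13206 transcripts that both tables share, the levels were 11.3 and 3226 CPM. The levels with the SiHa vector and in the library labelled knockdown did not differ beyond counting error. The ratio of the library labelled knockdown to the vector was 1.27 (0.63 to 2.53), or 0.88 (0.44 to 1.76) over shared transcripts.

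COL7A1, the other collagen of the group, followed another order. Its row, NM_000094.3, had 2502 counts in control ME-180 cells, 170 in the library labelled knockdown, 5145 with the SiHa vector and 3801 with overexpression. It was 13.7-fold lower in the library labelled knockdown (11.7 to 16.1), at 232 against 16.9 CPM. In SiHa it was 0.77-fold the vector level with overexpression (0.74 to 0.80), short of the 2-fold rule, at 362 against 278 CPM.

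The 2 SiHa libraries thus held more COL7A1 than the ME-180 control although TP63 was far lower there. The SiHa vector level exceeded that of the ME-180 control by 1.56-fold (1.49 to 1.64). The tables are scaled separately: with both scaled to the 13206 transcripts they share, the excess was 2.25-fold (2.14 to 2.36). The change of COL17A1 was 131 times that of COL7A1 in ME-180 (80.2 to 227), and in SiHa the ratio of overexpression to vector was 7.24 times as high for COL17A1 as for COL7A1 (4.45 to 12.3).

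The windows around the start sites of these genes are shown because their collagens moved so differently. RefSeq promoter windows of 300 bases on GRCh38.p14, 250 before to 50 after the start, matched 5 of the 6 genes with 8 windows. They were searched on both strands for the p53 family half-site by its name, for the AP-1 motif TGANTCA and for the GC box GGGCGG, and each window printed held matches of at most 1 of these motifs. Capitals mark the half-site. The COL17A1 window is chr10:104085831-104086130, the COL7A1 window chr3:48595280-48595579 and the LAMB3 window, the outermost of 3, chr1:209652376-209652675, all on the minus strand and printed 5′ to 3′ along the gene.
COL17A1: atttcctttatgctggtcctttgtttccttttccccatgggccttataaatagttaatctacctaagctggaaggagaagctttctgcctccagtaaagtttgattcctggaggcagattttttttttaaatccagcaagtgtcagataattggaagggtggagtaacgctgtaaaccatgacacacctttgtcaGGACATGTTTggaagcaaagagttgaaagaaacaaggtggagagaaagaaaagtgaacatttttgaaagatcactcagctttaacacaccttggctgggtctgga
COL7A1: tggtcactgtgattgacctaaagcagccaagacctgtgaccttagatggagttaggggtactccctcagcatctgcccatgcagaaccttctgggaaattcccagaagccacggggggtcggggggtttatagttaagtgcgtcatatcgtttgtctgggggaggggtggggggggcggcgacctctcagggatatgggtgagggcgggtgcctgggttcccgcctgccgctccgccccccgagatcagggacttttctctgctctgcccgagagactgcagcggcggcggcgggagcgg
LAMB3: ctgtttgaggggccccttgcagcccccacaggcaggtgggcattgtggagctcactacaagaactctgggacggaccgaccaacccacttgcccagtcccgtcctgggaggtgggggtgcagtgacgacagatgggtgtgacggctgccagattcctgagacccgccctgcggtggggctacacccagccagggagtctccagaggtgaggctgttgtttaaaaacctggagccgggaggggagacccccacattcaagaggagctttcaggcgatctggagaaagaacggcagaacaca

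The half-site GGACATGTTT lay from -55 to -46 before the COL17A1 start. It was the only match in the 8 windows of the 5 genes. Of the 34796 RefSeq windows of this length, 6.65% held at least 1 match, so 1 match among 8 windows says little. The COL7A1 window held 3 GC boxes and the LAMB3 window 1, against 44.9% of all windows with at least 1, and neither held TGANTCA, which 7.73% of all windows held. Another of the 3 LAMB3 windows, not printed, held that motif as TGACTCA from -67 to -61 and 1 GC box. A match is a string of letters and was not tied to binding here. The coordinates of the deposited p63 peaks are on another build and were not compared with these windows.

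LAMB3, which encodes the beta chain of the laminin, had at most 3 counts in any row of the library labelled knockdown and between 828 and 1206 in the SiHa libraries. Its row NM_000228.2 had 3571 counts in control ME-180 cells, 0 in the library labelled knockdown, 858 with the SiHa vector and 1206 with overexpression. With the count of 0 set to a floor of 3 counts, or 0.299 CPM, it was 1107-fold lower than in the control, a value set by that floor. The exact 95% interval, which allows up to 0.367 CPM for a count of 0, reached down to 899.7-fold. The row NM_001017402.1 went from 3327 counts to 3, and NM_001127641.1 from 3267 to 2.

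These 2 rows were 1031-fold lower (353 to 5003) and 1519-fold lower (420 to 12548). In SiHa, LAMB3 was 1.46-fold higher with overexpression (1.34 to 1.59), at 60.4 against 88.1 CPM, and its 3 rows had log2 ratios between 0.45 and 0.58, all short of the 2-fold rule. Whether LAMB3 or COL17A1 changed more in ME-180 could not be resolved at this depth, since the interval of their ratio of ratios reached from 0.45 upward without limit. In SiHa the ratio of overexpression to vector was 3.80 times as high for COL17A1 as for LAMB3 (2.32 to 6.53).

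Among the 6 genes, LAMB3 differed most between the SiHa vector library and the library labelled knockdown. Both had little COL17A1 and little TP63, yet the SiHa vector library held 60.4 CPM of LAMB3 and the library labelled knockdown 0, with a lower 95% limit of 164-fold for the difference, or 236-fold over shared transcripts. With each table scaled to its own total, COL7A1 was 21.4-fold higher in the SiHa vector library than in the library labelled knockdown (18.4 to 25.1). On that scale ITGB4 was 1.84-fold higher (1.19 to 2.90) and ITGA6 1.54-fold (1.38 to 1.71). Over shared transcripts the differences were larger, at 30.8-fold for COL7A1 (26.5 to 36.1). They were then 2.65-fold for ITGB4 (1.72 to 4.18) and 2.22-fold for ITGA6 (1.995 to 2.470).

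ITGB6 was nearly confined to the ME-180 control among these 4 libraries. Its row NM_000888.3 had 159 counts there, 2 in the library labelled knockdown, 0 with the SiHa vector and 2 with overexpression. It was 73.9-fold lower in the library labelled knockdown (20.1 to 616), from 14.7 to 0.199 CPM. The log2 ratio of CPM + 1, -3.71, understates this because the pseudocount outweighs 2 counts. The 3 low libraries did not differ beyond counting error, and the count of 0 with the SiHa vector has an exact upper 95% limit of 0.260 CPM. Its partner ITGAV was 2.60-fold lower in ME-180 (2.33 to 2.91), from 1234 to 441 counts, in row NM_001144999.1, and had 837 and 635 counts in SiHa in row NM_001145000.1, where ITGB6 was not detectable at this depth with the vector.

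**Figure D3:**
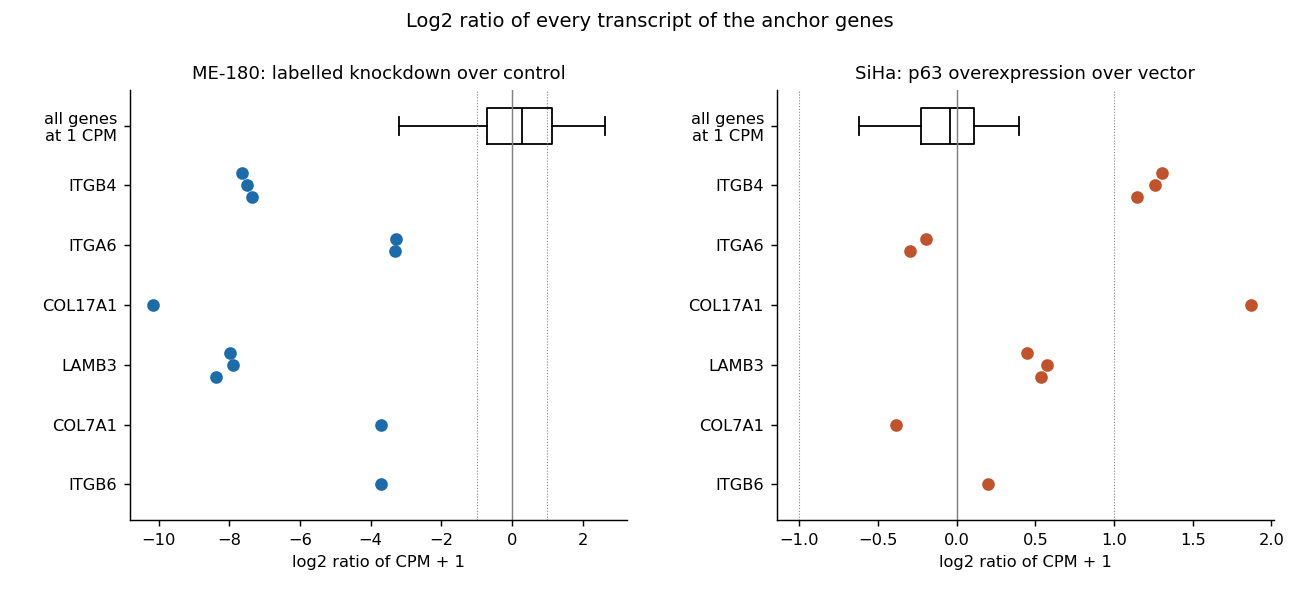
Log2 ratio of CPM + 1 for every transcript row of the 6 genes (points), with a box for all genes with at least 1 CPM in a library (median, quartiles, and whiskers from the 5th to the 95th percentile); dotted lines mark 2-fold. In ME-180 every point lies below the 5th percentile of -3.21, and in SiHa only COL17A1 and ITGB4 pass 2-fold.

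Among the 6783 ME-180 genes the 5th percentile of the log2 ratio was -3.21, with ITGA6 at -3.32 the closest of the 6 to it. Among the 6996 SiHa genes the 95th percentile was 0.40, and LAMB3 at 0.54 lay above it together with COL17A1 at 1.87 and ITGB4 at 1.14, while ITGA6 at -0.30 and COL7A1 at -0.38 lay above the 5th percentile of -0.62.

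In the authors' deposited table for ME-180, all 11 transcript rows of the 6 genes had an adjusted p under 0.05 and a negative fold change, as did 20% of the 15189 rows. COL17A1 had an adjusted p of 2.51e-61 in the authors' deposited table, and COL7A1 had 1.27e-16. In the authors' deposited table for SiHa, 1 of the 11 rows, COL17A1, had an adjusted p under 0.05 and a positive fold change, against 0.0904% of the 16600 rows, while 0.0422% had a negative one. That adjusted p was 0.00444 in the authors' deposited table, and the 3 ITGB4 rows had 0.332, 0.457 and 0.713. All p-values of both authors' deposited tables were matched within 0.01 log10 units by the exact test of edgeR with a preset coefficient of variation of 0.2, so they hold no spread between replicates.

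The anchor genes outside the 6 that had a row were lower in ME-180 by smaller factors than the 6. Of 15 anchor genes, the 6 included, 10 had a row in the ME-180 table. Of these, 9 were lower and 0 higher (median log2 ratio -3.51), against 20.6% lower and 28.2% higher of all genes. That count and median rest largely on the 6. Outside the 6, LAMA3 lay at -2.68, PLEC at -2.42, ITGAV at -1.36 and CD151 at -0.85, and the others had no row. PLEC, the plectin that holds keratin to the integrin, went from 1912 to 324 counts, 5.49-fold lower (4.88 to 6.19). LAMA3, the alpha chain that assembles with LAMB3, went from 1910 to 268 counts in row NM_001127717.1, 6.63-fold lower (5.83 to 7.56), and its other 2 rows were 8.22-fold and 9.09-fold lower. The alpha chain thus remained measurable where the beta chain had 0 to 3 counts. CD151, a tetraspanin that binds these integrins, was 1.81-fold lower (1.67 to 1.97) and did not reach the 2-fold rule. DST, ITGA3, ITGB1 and FERMT1 were among those without a row in the ME-180 table, which cannot be read as no expression.

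In SiHa, 14 of the 15 anchor genes had a row, 13 had at least 1 CPM, and 2 were higher and 0 lower (median 0.00), against 0.572% and 0.743% of all genes. The 2 were COL17A1 and ITGB4, both among the 6 genes chosen. DST transcript NM_001723.5 went from 36 to 76 counts, 2.19-fold (1.46 to 3.35), with a log2 ratio of CPM + 1 of 0.89 that stayed short of the rule. LAMA3 row NM_001127717.1, its highest, had 115 and 111 counts (interval of the ratio 0.76 to 1.31), and its rows NM_000227.3 and NM_001127718.1 had ratios of 1.71 (1.16 to 2.53) and 1.06 (0.72 to 1.55). The interval of LAMB3, 1.34 to 1.59, lay above that of the highest LAMA3 row and overlapped those of the other 2, so whether LAMB3 and LAMA3 differed beyond counting error depended on the row.

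**Figure D4:**
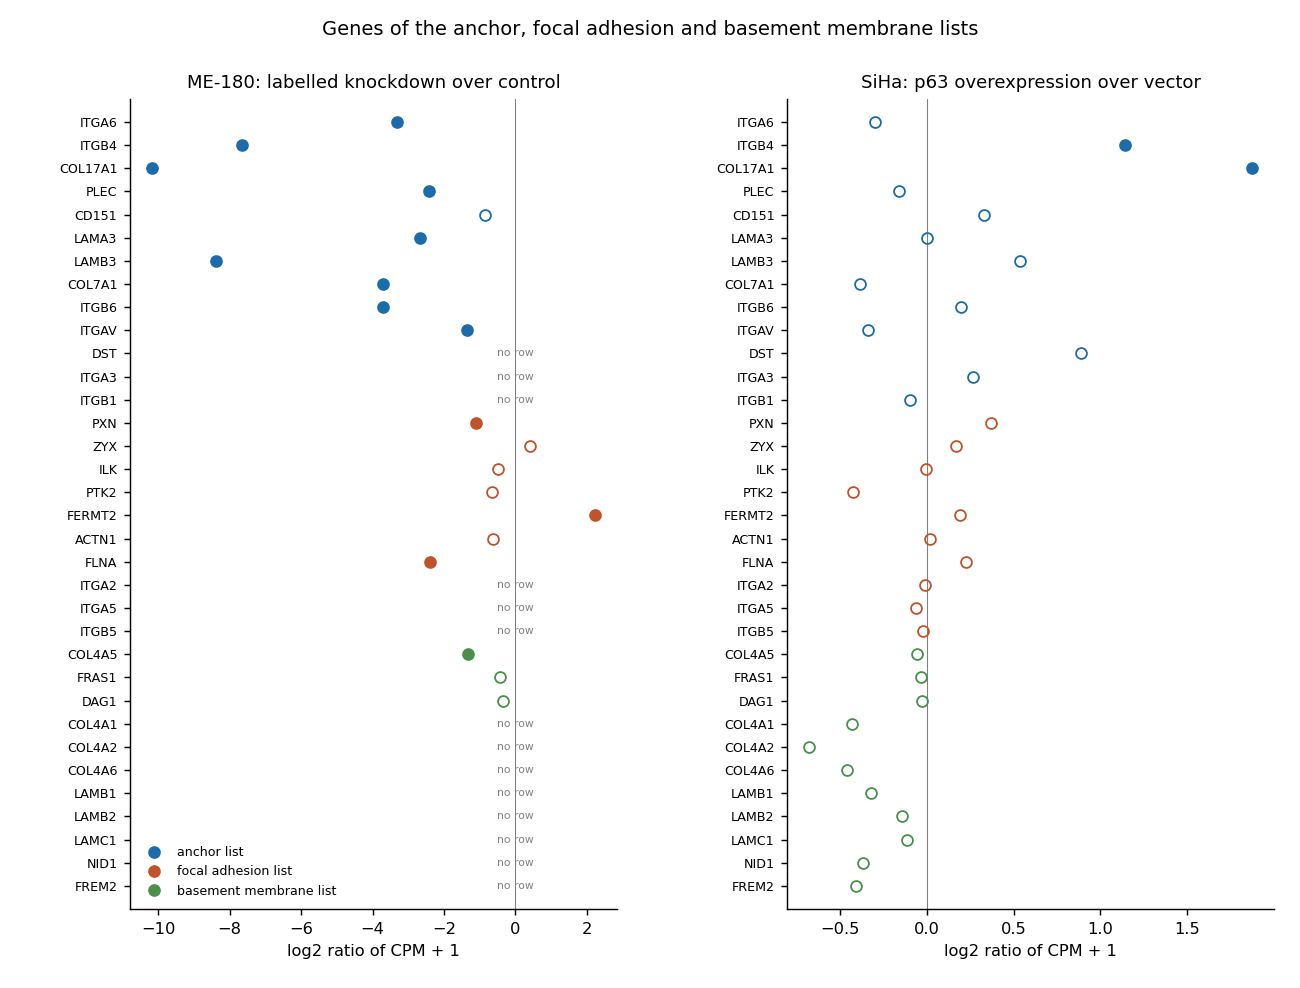
Log2 ratio of CPM + 1 for the genes of the anchor, focal adhesion and basement membrane lists in ME-180 (left) and SiHa (right); filled points pass the 2-fold rule with at least 1 CPM, and genes without a row in a table are marked; genes with a row in neither table and 1 further anchor gene are not drawn. In ME-180 the anchor genes reach -10.17 at COL17A1, 1 of the 6 genes chosen. Anchor genes outside the 6 lie between -2.68 (LAMA3) and -0.85 (CD151), and the lowest focal adhesion gene, FLNA, lies at -2.38.

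Focal adhesions are the other integrin-based contacts with the matrix and are linked to actin instead of keratin. Of 13 focal adhesion genes, 7 had a row in the ME-180 table, with 2 lower, 1 higher and a median log2 ratio of -0.63, against 20.6% lower and 28.2% higher of all genes, so the small counts say little about the list. FLNA, an actin crosslinker, went from 32397 to 5774 counts, 5.22-fold lower (5.07 to 5.37), and PXN, the adaptor paxillin, was 2.18-fold lower (1.98 to 2.40). FERMT2, the kindlin of focal adhesions, went from 143 to 655 counts, 4.93-fold higher (4.10 to 5.94). In SiHa, 0 of 10 passed the rule, against 1.32% of all genes (median 0.01), with PTK2, a focal adhesion kinase, at -0.43, PXN at 0.37 and FLNA at 0.23.

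Of 16 general basement membrane genes, 3 had a row in the ME-180 table, too few to set against the 20.6% of all genes that were lower. The 1 that was lower was COL4A5, a collagen IV chain, from 1810 to 665 counts, 2.53-fold (2.31 to 2.77). FRAS1 had a log2 ratio of -0.44 and DAG1 of -0.36. In SiHa, 0 of 11 passed the rule, against 1.32% of all genes, and 11 of 11 had log2 ratios below 0 (median -0.32, against -0.05 over all genes), or 9 of 11 with TMM scaling or DESeq2 size factors, under which DAG1 and FRAS1 lay above 0. The lowest were COL4A2 at -0.68, COL4A6 at -0.46 and COL4A1 at -0.43. COL7A1 at -0.38 lay within the range of these genes in SiHa, and COL17A1 and ITGB4 lay above it.

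Genes with the most similar profile over the 4 libraries were sought for each of the 6 by the Euclidean distance of log2(CPM + 1), centred on each gene's own mean, over 5064 candidates that reached 100 counts somewhere. The nearest to COL17A1 were KRT14 (distance 1.24) and KRT5 (1.26), the keratin pair of basal cells, and KAL1 (1.33). KRT14 had 46445, 30, 23 and 392 counts over the ME-180 control, the library labelled knockdown, the SiHa vector and the overexpression library. ITGB4 was the anchor gene nearest to COL17A1, at a distance of 2.63. The nearest to ITGB4 were SCIN (0.65), ARHGDIB (0.85) and FAM110C (0.89), with 2, 4 and 0 counts in the library labelled knockdown against 30 for ITGB4. The pseudocount compresses differences between counts this low.

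The nearest to ITGA6 were MARVELD3 (0.09), a tight junction protein, SMAD3 (0.15), a transducer of TGF-beta signals, and HES5 (0.18), which had at most 8 counts outside the ME-180 control. The distance of ITGA6 to its partner ITGB4 was 3.51, ITGB4 ranking 3950 among the candidates by distance to ITGA6 and ITGA6 ranking 210 by distance to ITGB4. The nearest to LAMB3 were OCIAD2 (0.81), ELF3 (0.94), an epithelial transcription factor, and TNFSF10 (1.03), all with 2 or fewer counts in the library labelled knockdown and between 534 and 1006 in the SiHa libraries. The nearest to COL7A1 were ABCC3 (0.35), GSTT2 (0.37) and PLA2R1 (0.48), which had 0 or 1 count in the library labelled knockdown, and the nearest to ITGB6 were FST (0.14), MYPN (0.15) and LGALS9B (0.23), with 10 or fewer counts outside the control. Distances over 4 libraries without replicates describe these libraries only, and where counts are low they depend on the pseudocount.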

How the data were processed

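The authors deposited whole-number counts per RefSeq transcript for the 4 RNA libraries, in 1 table per cell line, with a log2 fold change, a p-value and an adjusted p-value per row, per the file headers. The submitters' processing notes name TopHat, Cufflinks, DESeq2 and the build hg19, without roles; the sources used here give neither the counting method nor the strand setting, so reads of overlapping genes cannot be told apart. The peak table was not used here. CPM are counts per 1000000 of a table's total. Where a gene had several rows, the one whose CPM summed highest within a table stood for it. A gene was called at 2-fold or more on log2(CPM + 1) with at least 1 CPM in a library. With 1 library per group no test was run; intervals are exact Poisson, conditional binomial (count ratios) or conditional odds ratio intervals (ratios of ratios), at 95%. Names came from the tables; 32 and 31 rows with a spreadsheet date were named by accession. Named genes were TP63, the 6 genes, the list genes with the largest ratios (6 for the anchor list, 3 for the others) and the 3 nearest profiles per gene; PLEC, LAMA3, ITGAV and CD151 were added after their values were seen. In the anchor list 1 gene is counted but not reported here. The 6 genes and the lists were chosen with earlier results of these data known. The computation of calls and intervals was checked on simulated Poisson counts with planted changes. These held counting error only, so the check does not cover spread between replicates. Tools were Python 3.11.15, scipy 1.17.1, R 4.3.3, edgeR 4.0.16 and DESeq2 1.42.0.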

Additional observations from a re-analysis of the deposited data

How the results depend on the processing

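Alternatives were no floor on CPM, pseudocounts of 0.1 and 5, TMM scaling, DESeq2 size factors, the lowest transcript with at least 100 counts, and the authors' deposited log2 fold change. The 6 genes were lower in ME-180 under all 7. TMM scaling shifted ME-180 log2 ratios by -0.28 and turned the ME-180 calls from 1914 higher and 1400 lower into 1503 and 1653; CD151 then passed the rule, giving 10 anchor genes lower, as with DESeq2 size factors and the authors' fold change. With a pseudocount of 5, ITGB4 lost its call in SiHa, leaving 1 of the 6 genes and 1 anchor gene higher, the genes called numbered 2190 in ME-180 and 20 in SiHa, and the log2 differences became -3.44 (ITGB4 minus ITGA6) and -5.46 (COL17A1 minus COL7A1) in ME-180 and 1.38 (COL17A1 minus COL7A1) and 0.49 (COL17A1 minus LAMB3) in SiHa. The genes called in SiHa, 92 with the settings used above, were 340 with a pseudocount of 0.1 and 357 with the authors' fold change; in ME-180 they were 3314 above. COL17A1 minus LAMB3 in ME-180, -1.80 above, reversed to 0.96 with a pseudocount of 0.1 and to 3.80 with the authors' fold change, because LAMB3 has a count of 0. Of the 84 single-gene log2 ratios, 70 stayed within counting error, 14 moved and 0 reversed. The 70 include values that could not move. Dropping the floor leaves a ratio unchanged, and COL17A1, COL7A1 and ITGB6 have 1 row each to choose from. Wide intervals also took in large shifts with the authors' fold change. ITGB6 in SiHa went from 0.20 to 4.13, and LAMB3 in ME-180 from -8.37 to -14.9. No paired analysis was possible because each group has 1 library, and for the same reason no library could be left out.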
